A study of Mus musculus with 14 samples.

Results

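Sqstm1 and 9 genes that lie around it on mouse chromosome 11 were followed in whole hearts in which Sqstm1 had been deleted from cardiac muscle. The 10 genes, Gfpt2, Mapk9, Rnf130, Tbc1d9b, Mrnip, Sqstm1, Mgat4b, Ltc4s, Maml1 and Canx, are the targeted gene and genes near it. They were chosen with earlier results of these data known, and they are not simply the nearest genes. The tested gene Hnrnph1, 166162 bases from Sqstm1, is not among them, while Gfpt2, 360752 bases away, is. They are 10 of 55487 genes in the count table, and all 10 were among the 15528 genes that passed a filter on low counts. The hearts came from untreated male C57BL/6 mice of 2 or 15 months. Wild-type hearts (n = 3 at 2 months, n = 4 at 15 months) were compared with knockout hearts of the genotype Myh6-Cre-Sqstm1fl/fl (n = 3 and n = 4). The wild-type mice are labelled only as wild type, so an effect of the floxed allele or of Cre alone cannot be told apart from an effect of the deletion. The Myh6 promoter drives Cre in cardiac muscle cells, so the fibroblasts, endothelial cells and immune cells of the same heart are not targeted. The labels give replicate numbers but do not say that hearts were handled separately, so the p-values below reflect the spread among these libraries, which may be technical.

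Sqstm1 encodes p62, a receptor that binds ubiquitin-tagged cargo and hands it to the growing autophagosome, and that also binds Keap1, the inhibitor of the transcription factor Nrf2. In cardiac muscle, whose cells are rarely replaced, p62 takes part in the removal of damaged proteins and mitochondria. The knockout genotype carries Cre as well as a floxed allele at 1 locus, Sqstm1. The genes beside it lie on the same part of the chromosome, and 1 transcript of the nearest one, Mgat4b, is annotated to start beside Sqstm1. Levels are given as CPM, counts scaled to a common library total with TMM, and changes as log2 fold changes.

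The 10 genes span chr11:49794178-50325673 (GRCm38, GENCODE M21), and all are annotated as protein coding. On the plus strand lie Gfpt2 (49794178 to 49838613), Mapk9 (49846751 to 49886421), Rnf130 (50025346 to 50104758), Tbc1d9b (50131396 to 50172785), Mrnip (50174444 to 50200115) and Mgat4b (50210890 to 50235103). On the minus strand lie Sqstm1 (50199366 to 50210827), Ltc4s (50236461 to 50238616), Maml1 (50255634 to 50292311) and Canx (50293961 to 50325673). Sqstm1 and Mgat4b are transcribed away from each other, and 62 bases separate their annotated starts. Mrnip and Sqstm1 run towards each other and share 580 exonic bases on opposite strands, which is 28.4% of the exonic bases of Mrnip and 17.3% of those of Sqstm1. The antisense gene Gm26542 shares 268 exonic bases with Ltc4s (26.4% of its exons) and 135 with Maml1 (2.44%). The library kit keeps strand, but the strand setting of the counting is not given in the sources used here. Without it, reads from the shared bases of Mrnip and Sqstm1, and of Ltc4s and Gm26542, cannot be told apart.

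**Figure D1:**
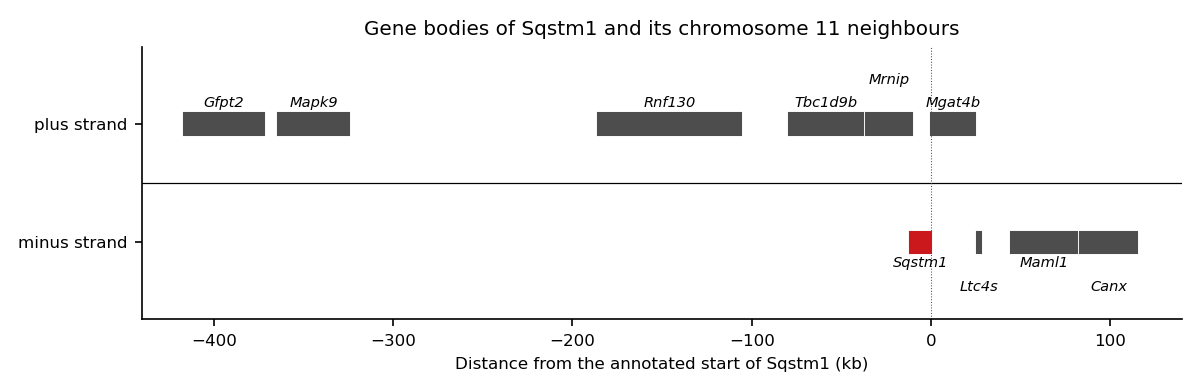
Gene bodies of the 10 genes on chromosome 11, drawn to scale. The horizontal axis is the distance in kb from the annotated start of Sqstm1 (dotted line), bars above the solid line are plus-strand genes and bars below it minus-strand genes, with Sqstm1 in red. Mgat4b begins beside the start of Sqstm1 and runs the other way, while the far end of Mrnip reaches the far end of Sqstm1.

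The interval between the starts of Sqstm1 and Mgat4b is shown because these genes had the smallest p-values of the 10 for knockout against wild type over both ages. It is printed from the RefSeq promoter table (GRCm38.p6) for chr11:50210807-50210910, minus strand, 5′ to 3′ in the direction of Sqstm1, with 20 bases beyond each start. Capitals mark the GC box, spelled GGGCGG on either strand, and the TATA box, which has the letters TATAAA.

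Sqstm1-Mgat4b interval: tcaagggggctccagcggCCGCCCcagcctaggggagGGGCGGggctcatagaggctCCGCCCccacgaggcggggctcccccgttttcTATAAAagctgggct

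The transcript Mgat4b-204 starts at base 21 of this stretch and leaves to the left on the opposite strand. The first annotated start of Sqstm1 is base 84, and the RefSeq start of Sqstm1 is base 91. GC boxes lie at bases 19 to 24, 38 to 43 and 58 to 63, so 1 covers the Mgat4b-204 start and the other 2 lie between both starts, and the TATA match lies at bases 90 to 95. The transcript Sqstm1-201 starts at 50210791, outside this stretch. In the 300-base promoter window of Sqstm1 that start is base 280, and the TATA match lies at bases 250 to 255 of the window. Mgat4b-204 is the 1 transcript of Mgat4b annotated to start here. The transcript Mgat4b-201 starts at 50225335, and gene-level counts do not separate them. Promoter windows of 300 bases were found for 9 of the 10 genes, all but Mgat4b. GGGCGG, searched on both strands, was present in 8 of these 9 windows (not in that of Ltc4s) and in 35.7% of all 32851 promoter windows. TATAAA was present in 1 of 9, that of Sqstm1, and in 13.6% of all. CCAAT was present in 4 of 9 and 37.4% of all, TGACNNNGC (the core of the antioxidant response element bound by Nrf2) in 1 of 9, that of Tbc1d9b, and 12.4% of all, and CACGTG in 0 of 9 and 7.15% of all. The motifs do not overlap each other in these searches, and a match is a description of letters, not of binding.

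Library totals ranged from 20218992 to 30404416 counts, with 27.5% to 46.0% of counts on mitochondrial genes. The library labelled wild-type replicate 1 at 2 months stood apart, with a summed level of 4 atrial muscle markers of 1633 CPM against 2.57 to 217 CPM in the other 13 libraries. Its fat cell markers were also apart, at 39.1 CPM against 0.07 to 7.26 CPM. Atrial transcripts were not confined to this library. Myl7, 1 of the 4 atrial markers, was at 638 CPM there. It was at 39.7, 15.0 and 26.9 CPM in aged wild-type replicates 1, 2 and 4, and at 58.1 CPM in aged knockout replicate 1. In the other libraries Myl7 was at 0.04 to 0.48 CPM. Knockout replicate 1 at 15 months had the highest mitochondrial share, 46.0%. Its atrial sum was 140 CPM against 5.56, 14.3 and 15.2 CPM in the other aged knockout hearts, and its fat cell sum 4.91 CPM against 0.07, 1.29 and 0.17 CPM. Myh6, whose promoter drives Cre, was at 4153 to 18373 CPM and 10 cardiac muscle markers summed to 44462 to 94900 CPM in the 14 libraries. In whole hearts, fewer cells of a type and less RNA per cell cannot be told apart.

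Sqstm1 fell in knockout hearts at both ages, to 10.1% of the wild-type mean at 2 months and 10.6% at 15 months. Young wild-type hearts held 177, 139 and 169.5 CPM, and young knockout hearts 15.2, 14.7 and 19.2 CPM. Aged wild-type hearts held 208, 186, 238 and 173 CPM, and aged knockout hearts 14.6, 37.0, 16.2 and 17.6 CPM. Every knockout heart lay far below every wild-type heart, and among knockout hearts only replicate 2 at 15 months stood above the rest. The log2 fold change was −3.30 (SE 0.31; adjusted p = 0.00036) at 2 months and −3.23 (SE 0.26; adjusted p = 6.46e-05) at 15 months, by edgeR's quasi-likelihood test with Benjamini-Hochberg adjustment over all 15528 genes. Sqstm1 was the 1 gene called at each age, 0.00644% of genes tested. The exact two-sided permutation test over hearts gave p = 0.1 at 2 months and p = 0.0286 at 15 months, the smallest that 3 against 3 and 4 against 4 can give.

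What remained of Sqstm1 was 9.40%, 9.10% and 11.9% of the wild-type mean in the 3 young knockout hearts. In the aged knockout hearts it was 7.27%, 18.4%, 8.04% and 8.75%. The 3 aged hearts other than replicate 2 averaged 16.1 ± 1.48 CPM (SD, n = 3), or 8.02% of wild type, and replicate 2 was 2.29 times that mean. In that replicate the summed fibroblast markers were at 878 CPM, against 553, 998 and 690 CPM in the other aged knockout hearts. Its endothelial markers were at 1097 CPM against 805, 1599 and 1232 CPM, and its macrophage markers at 212 CPM against 239, 174 and 206 CPM. None of these 3 sums was outside the range of the other aged knockout hearts, but other values were. The lymphocyte sum was highest in replicate 2 (1.70 CPM against 1.24, 0.66 and 1.18 CPM), and the atrial, fat cell and skeletal muscle sums were lowest. Within the 3 sums, Dcn (520 CPM), Lum (63.5 CPM), Tcf21 (4.17 CPM) and Vwf (144 CPM) were highest of the aged knockout hearts. So were the macrophage markers Csf1r (31.9 CPM), Cd68 (6.40 CPM), Adgre1 (8.62 CPM) and C1qa (23.2 CPM). Fabp4 (283 CPM) and Egfl7 (19.0 CPM) were lowest, and the other markers of these 3 sums lay inside the range. The source of the Sqstm1 left in this heart was not tested. Counts of the whole gene also hold exons that the deletion may leave, so transcripts of other cells and of deleted alleles cannot be told apart here.

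Sqstm1 itself differed between ages by less than the test could call. The change from 2 to 15 months was 0.31 (SE 0.26; adjusted p = 0.479) in wild type and 0.38 (SE 0.27; adjusted p = 0.365) in knockout, after Benjamini-Hochberg adjustment in edgeR. Without knockout replicate 2 at 15 months the knockout value was −0.02, on the other side of 0. The knockout effect at 15 months minus that at 2 months was 0.07 (SE 0.37) for Sqstm1, and −0.34 without that heart.

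**Figure D2:**
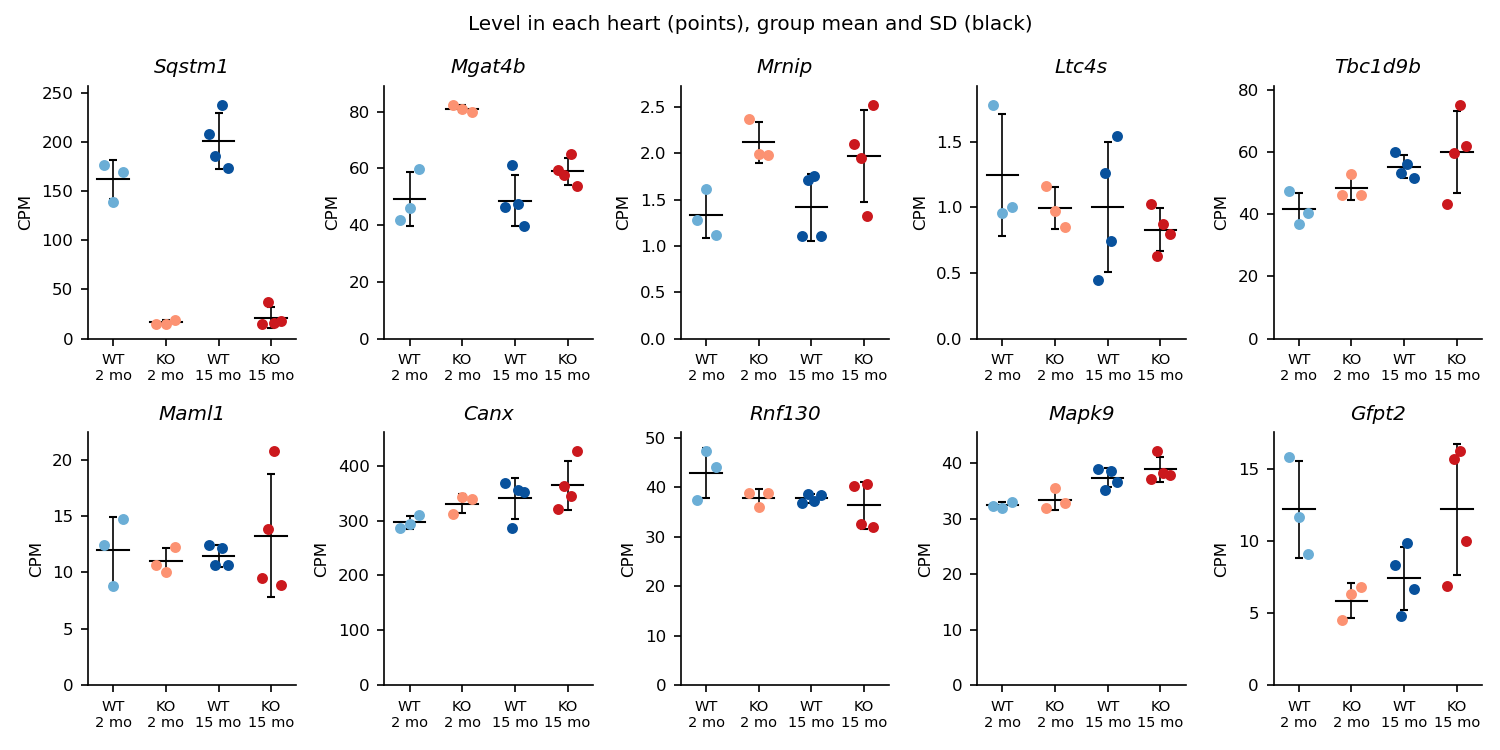
Level of each of the 10 genes in CPM (vertical axis, from 0) in every heart, 1 point per heart, with the group mean and SD in black, for wild type (WT) and knockout (KO) at 2 and 15 months. The 7 knockout hearts lie between 14.6 and 37.0 CPM for Sqstm1 and the 7 wild-type hearts between 139 and 238 CPM, while Mgat4b separates the genotypes at 2 months and Gfpt2 turns direction between the ages.

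In wild-type hearts the 10 genes covered a wide range of levels per length. Over 7 hearts, Canx was highest with 68.6 ± 7.61 CPM per kb of exon (SD), followed by Sqstm1 with 54.9 ± 9.31 CPM per kb. The ranges of Canx (61.0 to 78.4 CPM per kb) and Sqstm1 (41.4 to 70.8 CPM per kb) overlapped. Rnf130 (25.7 ± 2.59 CPM per kb) and Mgat4b (17.99 ± 3.09 CPM per kb) formed a middle level whose ranges overlapped neither each other nor those of the next genes up and down. Tbc1d9b was at 7.69 ± 1.30 and Mapk9 at 5.20 ± 0.44 CPM per kb, with ranges that met by a hair (5.74 to 9.35 and 4.71 to 5.75). Maml1 (2.11 CPM per kb), Gfpt2 (1.69), Ltc4s (1.09) and Mrnip (0.68) were lowest, each overlapping the next. Ltc4s and Mrnip rested on few reads, 13 to 46 and 27 to 60 counts per library, so their values carry the largest counting error of the 10.

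Of the 9 neighbours, 0 were called between genotypes at either age or over both ages by edgeR's quasi-likelihood test, and 0 by DESeq2. At an unadjusted p under 0.05 there were 3 at 2 months (Mgat4b, Mrnip and Gfpt2), 1 at 15 months (Gfpt2) and 2 over both ages (Mgat4b and Mrnip). Of all genes tested, 3.18%, 3.97% and 3.26% had such a p. At 2 months 4 of the 9 neighbours did not overlap between genotypes, with Mgat4b, Mrnip and Canx higher and Gfpt2 lower in knockout. Of all genes tested 8.15% did not overlap at that age, 4.43% higher and 3.72% lower in knockout. At 15 months it was 0 of 9, where 1.99% of all genes did not overlap, and over both ages again 0 of 9 against 0.0193%. The median log2 fold change of the 9 was 0.05 at 2 months and 0.12 at 15 months, beside −0.0015 and 0.0083 over all genes. Of the 9, 5 lay above 0 at 2 months and 7 at 15 months.

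Mgat4b is the gene whose annotated start lies beside that of Sqstm1. It encodes an enzyme of the Golgi that adds a branching N-acetylglucosamine to N-linked sugar chains of glycoproteins. Its level was 41.8, 45.9 and 60.0 CPM in young wild-type hearts, against 82.5, 81.1 and 79.8 CPM in young knockout hearts. Aged wild-type hearts had 46.4, 61.0, 47.6 and 39.6 CPM, against 59.5, 57.5, 65.1 and 53.8 CPM in aged knockout hearts. All young knockout hearts lay above all wild-type hearts of either age, and the aged knockout hearts lay below the young ones. Aged wild-type replicate 2, at 61.0 CPM, was above 3 of the 4 aged knockout hearts. The log2 fold change of knockout against wild type was 0.72 (SE 0.16; unadjusted p = 0.000574) at 2 months, a 1.65-fold difference. At 15 months it was 0.28 (SE 0.14; unadjusted p = 0.0699), or 1.21-fold. Over both ages it was 0.50 (SE 0.11; unadjusted p = 0.000374), the 5th smallest p of 15528 genes. After Benjamini-Hochberg adjustment in edgeR's quasi-likelihood test the adjusted p was 0.9997 at 2 months, 0.999 at 15 months and 0.9995 over both ages, so Mgat4b was not called. Over all alternatives the value stayed between 0.62 and 0.90 at 2 months, with a lowest adjusted p of 0.0908 (DESeq2), and between 0.20 and 0.41 at 15 months. Over both ages it stayed between 0.45 and 0.59, with a lowest adjusted p of 0.0522 (DESeq2).

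The knockout effect on Mgat4b at 15 months minus that at 2 months was −0.44 (SE 0.22; unadjusted p = 0.0597), which does not pass. Within knockout hearts the level was 81.1 ± 1.34 CPM (SD, n = 3) at 2 months and 59.0 ± 4.74 CPM (SD, n = 4) at 15 months, and the groups did not overlap. The change with age in knockout was −0.46 (SE 0.15; adjusted p = 0.0946, Benjamini-Hochberg adjustment in edgeR's quasi-likelihood test). In wild type the means were 49.2 ± 9.53 and 48.7 ± 8.97 CPM, with a change of −0.02 (SE 0.15).

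Mrnip, whose product regulates the MRN complex at DNA double-strand breaks, is the gene that overlaps the other end of Sqstm1. Young wild-type hearts had 1.28, 1.61 and 1.12 CPM of Mrnip, against 2.37, 1.99 and 1.98 CPM in young knockout hearts. Among aged hearts the wild type had 1.10, 1.71, 1.75 and 1.11 CPM, against 2.10, 1.95, 1.32 and 2.52 CPM in the knockout. The genotypes were apart at 2 months, and at 15 months 3 of 4 knockout hearts lay above all wild-type hearts. The log2 fold change was 0.67 (SE 0.30; unadjusted p = 0.0437) at 2 months, 0.47 (SE 0.26) at 15 months and 0.57 (SE 0.20; unadjusted p = 0.012, rank 100 of 15528) over both ages. None of the 3 passed after adjustment (lowest adjusted p = 0.999, Benjamini-Hochberg adjustment in edgeR's quasi-likelihood test). Knockout replicate 3 at 15 months, with 1.32 CPM, lay below 3 of the 7 wild-type hearts.

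Gfpt2, a rate-limiting enzyme of the hexosamine pathway that makes the sugar donor for glycosylation, differed in opposite directions at the 2 ages. Young wild-type hearts had 15.8, 11.7 and 9.12 CPM of Gfpt2, against 4.50, 6.29 and 6.83 CPM in young knockout hearts. In aged wild-type hearts 8.34, 4.80, 9.84 and 6.67 CPM were found, against 6.85, 15.7, 16.3 and 10.01 CPM in aged knockout hearts. Young knockout hearts were all below young wild-type hearts, while 3 of 4 aged knockout hearts were above all aged wild-type hearts. The log2 fold change was −1.05 (SE 0.33; unadjusted p = 0.0065) at 2 months and 0.72 (SE 0.28; unadjusted p = 0.022) at 15 months. The difference between the effects was 1.78 (SE 0.44; unadjusted p = 0.00104), the 10th smallest p of that contrast. It did not pass after adjustment (adjusted p = 0.9998 in edgeR's Benjamini-Hochberg adjusted test). In that contrast 0 genes passed by edgeR, 1 by DESeq2, and 577 had an unadjusted p under 0.05. Wild-type replicate 1 at 2 months had the highest atrial marker sum of all libraries and the highest young Gfpt2 value. Without it, the 2-month value was −0.81 and the difference 1.54. Without knockout replicate 2 or 3 at 15 months the 15-month value was 0.58 or 0.56.

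Fibroblast markers, read beside Gfpt2, depended on single hearts. The summed level of 8 markers was 1287, 792 and 501 CPM in young wild-type hearts and 662, 513 and 509 CPM in young knockout hearts. Aged wild-type hearts summed to 428, 323, 695 and 730 CPM and aged knockout hearts to 553, 878, 998 and 690 CPM. All 8 markers lay below 0 for knockout against wild type at 2 months (median log2 fold change −0.72) and all 8 above 0 at 15 months (median 0.48), and 0 of 8 were called at either age by edgeR or DESeq2, with 2 and 0 at an unadjusted p under 0.05. Without wild-type replicate 1 at 2 months, an alternative chosen after seeing the data, 6 of 8 lay below 0 at 2 months and the median was −0.17. Leaving out 1 aged heart in turn gave 15-month medians of 0.23 (without knockout replicate 3) to 0.64, and 6 of 8 above 0 without wild-type replicate 2 (median 0.30). The part of fibroblasts in the Gfpt2 values was not tested.

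**Figure D3:**
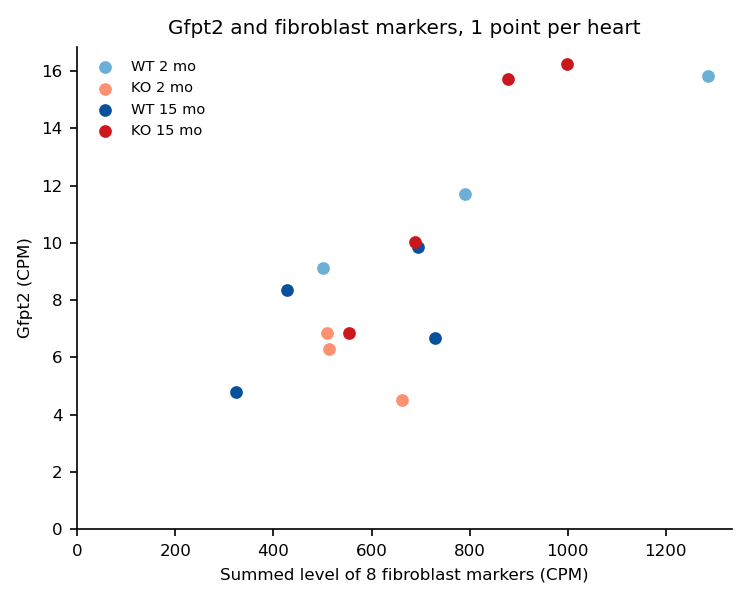
Gfpt2 level in CPM (vertical axis) against the summed level of 8 fibroblast markers in CPM (horizontal axis), 1 point per heart, coloured by group. The hearts with the most Gfpt2, wild-type replicate 1 at 2 months (15.8 CPM) and knockout replicates 2 and 3 at 15 months (15.7 and 16.3 CPM), have fibroblast sums of 1287, 878 and 998 CPM, the 3 highest of the 14.

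The remaining 6 neighbours had no unadjusted p under 0.05 between genotypes at either age in edgeR's quasi-likelihood test. For Ltc4s and Maml1 the SE was 0.23 to 0.43, so small and larger differences cannot be told apart for these genes. Canx, the calnexin chaperone that holds newly made glycoproteins in the endoplasmic reticulum until they fold, was at 287, 294 and 310.6 CPM in young wild-type hearts and at 311.4, 343 and 339 CPM in young knockout hearts. The aged hearts had 368, 286, 356 and 353 CPM (wild type) and 322, 364, 345 and 427 CPM (knockout). The young groups were separated by under 1 CPM and the aged groups overlapped widely. The log2 fold changes were 0.16 (SE 0.14) and 0.10 (SE 0.13).

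Tbc1d9b, a GTPase-activating protein for Rab proteins of recycling vesicles, gave 47.4, 36.9 and 40.5 CPM in young wild-type and 46.0, 53.1 and 46.3 CPM in young knockout hearts. In the aged hearts these were 60.1, 53.2, 56.2 and 51.6 CPM (wild type) and 43.3, 59.8, 75.2 and 61.8 CPM (knockout). The genotypes overlapped at both ages, and the aged knockout hearts held both the lowest and the highest aged value. Its log2 fold changes were 0.22 (SE 0.17) and 0.12 (SE 0.15), and the 15-month value was −0.0041 without knockout replicate 3.

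Rnf130, a membrane-bound RING ubiquitin ligase also known as goliath, was at 37.4, 47.3 and 44.0 CPM in young wild-type and 38.8, 35.99 and 38.9 CPM in young knockout hearts. The values of the aged hearts were 36.9, 38.7, 37.2 and 38.4 CPM (wild type) and 40.2, 32.5, 40.7 and 32.0 CPM (knockout). The aged wild-type hearts lay close together, and the aged knockout hearts lay on both sides of them. Its log2 fold changes were −0.18 (SE 0.13) and −0.06 (SE 0.11).

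Mapk9 encodes JNK2, a stress-activated kinase, and had the smallest SE of the 10 genes in both genotype contrasts. Its level was 32.2, 31.9 and 33.0 CPM in young wild-type and 31.9, 35.5 and 32.9 CPM in young knockout hearts. With 39.0, 35.2, 38.6 and 36.7 CPM (wild type) and 37.2, 42.2, 38.3 and 37.9 CPM (knockout), the aged hearts lay slightly higher. Genotypes overlapped at both ages, with log2 fold changes of 0.05 (SE 0.11) and 0.06 (SE 0.09).

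Maml1, a coactivator that joins the Notch intracellular domain on DNA, was at 12.4, 8.78 and 14.7 CPM in young wild-type and 10.7, 10.1 and 12.3 CPM in young knockout hearts. Aged hearts gave 12.4, 10.6, 12.1 and 10.7 CPM (wild type) and 9.55, 13.8, 20.8 and 8.92 CPM (knockout). Knockout replicate 3 at 15 months held the highest value of the 14. The log2 fold changes were −0.13 (SE 0.27) and 0.21 (SE 0.23), and without that heart the second was −0.09.

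Ltc4s encodes leukotriene C4 synthase, an enzyme mainly of mast cells, macrophages and other myeloid cells. It was at 1.78, 0.96 and 1.01 CPM in young wild-type and 1.162, 0.98 and 0.85 CPM in young knockout hearts. Aged hearts had 0.45, 1.262, 0.75 and 1.55 CPM (wild type) and 1.02, 0.63, 0.87 and 0.80 CPM (knockout). The knockout hearts lay inside the wild-type range at 15 months and 1 was below it at 2 months. The log2 fold changes were −0.34 (SE 0.43) and −0.27 (SE 0.37), with both turning sign when 1 wild-type heart was left out (0.02 without replicate 1 at 2 months, 0.03 without replicate 4 at 15 months). Summed mast cell markers were at 3.28 to 9.87 CPM and macrophage markers at 167 to 406 CPM over the 14 hearts.

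**Figure D4:**
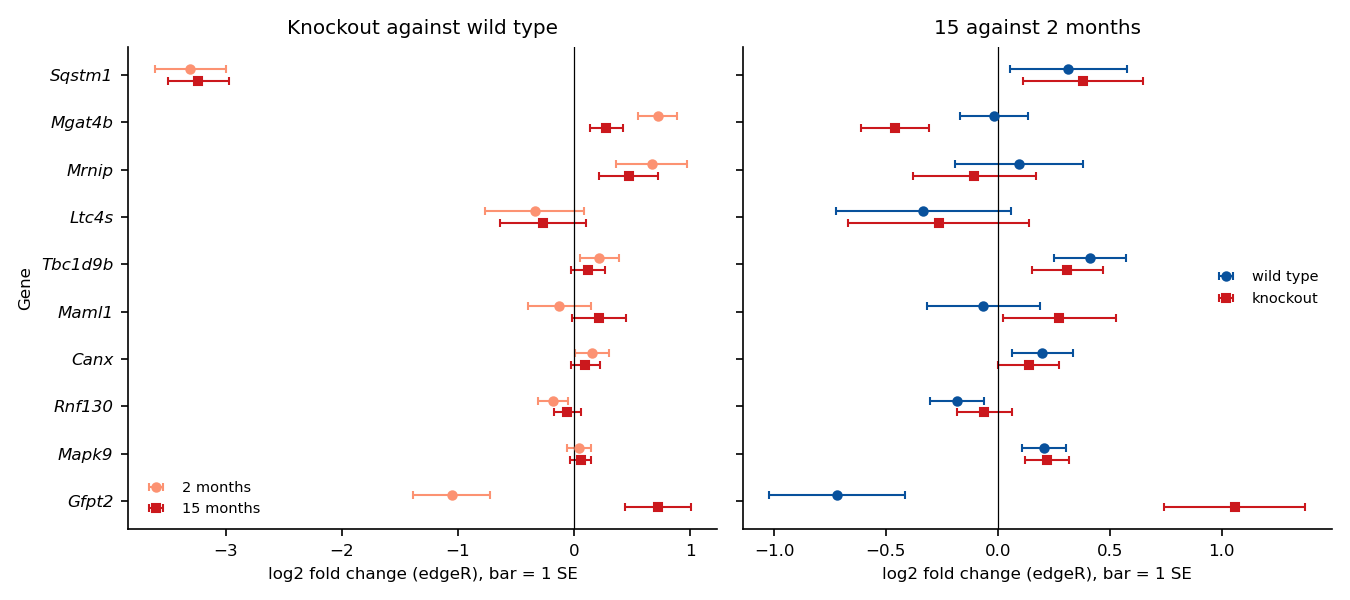
Log2 fold changes from edgeR with bars of 1 SE for each of the 10 genes, for knockout against wild type at each age (left) and for 15 against 2 months in each genotype (right), with 0 marked. On the left Sqstm1 sits at −3.30 and −3.23 and Gfpt2 on both sides of 0 (−1.05 and 0.72), and on the right Gfpt2 again lies on both sides (−0.72 in wild type and 1.06 in knockout).

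With age, 0 of the 10 genes were called in wild-type hearts, where 1.04% of all genes were, and 0 of 10 in knockout hearts, where 2.25% were, by edgeR's quasi-likelihood test with Benjamini-Hochberg adjustment. Among the 9 neighbours 2 in wild type and 3 in knockout had an unadjusted p under 0.05, where 23.8% and 26.7% of all genes did. DESeq2 called 0 and 1 of the 9, where it called 7.08% and 10.4% of all genes. Groups did not overlap for Mapk9 and Tbc1d9b in wild type, both higher at 15 months (8.6% of all genes did not overlap in that direction). In knockout they did not overlap for Mapk9 and Gfpt2, both higher (8.83% of all genes), and for Mgat4b, lower (11.3%). Mapk9 gave 0.21 (SE 0.10) in wild type and 0.22 (SE 0.10) in knockout. Tbc1d9b gave 0.41 (SE 0.16; adjusted p = 0.153) and 0.31 (SE 0.16; adjusted p = 0.221) in the same edgeR test. Gfpt2 gave −0.72 (SE 0.30; adjusted p = 0.173) in wild type and 1.06 (SE 0.32; adjusted p = 0.078) in knockout. The knockout value of Gfpt2 was called by DESeq2 (1.07, adjusted p = 0.0195). Knockout replicate 1 at 15 months had the highest mitochondrial share and, of the aged knockout hearts, the highest atrial and fat cell marker sums. Without this library edgeR also called the knockout value of Gfpt2 (1.25, adjusted p = 0.0107), together with Tbc1d9b in knockout (0.44, adjusted p = 0.0329). In that setting 3523 of 15617 genes, 22.6%, were called, so 2 of 10 is near the background. The other genes gave age differences of −0.33 to 0.31 (wild type) and, Mgat4b aside, −0.26 to 0.38 (knockout). These contrasts share their hearts with the genotype contrasts, so the values of a gene in both are not independent.

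Sqstm1 itself aside, 78 annotated genes had a body within 1 Mb on either side of it, the 9 neighbours included. Of these 78, 48 were protein coding and 25 were tested. Of the 16 tested genes other than the 9 neighbours, 0 were called between genotypes at either age by edgeR or DESeq2. At an unadjusted p under 0.05 there were 0 at 2 months and 1 at 15 months. That 1 was Mgat1, which starts the same sugar-branching route as Mgat4b and lay at −0.28 (SE 0.11), with its aged knockout hearts all below its aged wild-type hearts. It is named after its value was seen. The median absolute log2 fold change of these 16 was 0.15 at 2 months and 0.11 at 15 months, against 0.22 and 0.21 for the 9 neighbours and 0.15 at both ages for all genes. The medians of the 9 were the values of Tbc1d9b (SE 0.17) at 2 months and of Maml1 (SE 0.23) at 15 months. Whether the neighbours differ from other genes in this measure was not tested. Over both ages the smallest p-values of the window belonged to Mgat4b and Mrnip, the genes on either side of Sqstm1.

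**Figure D5:**
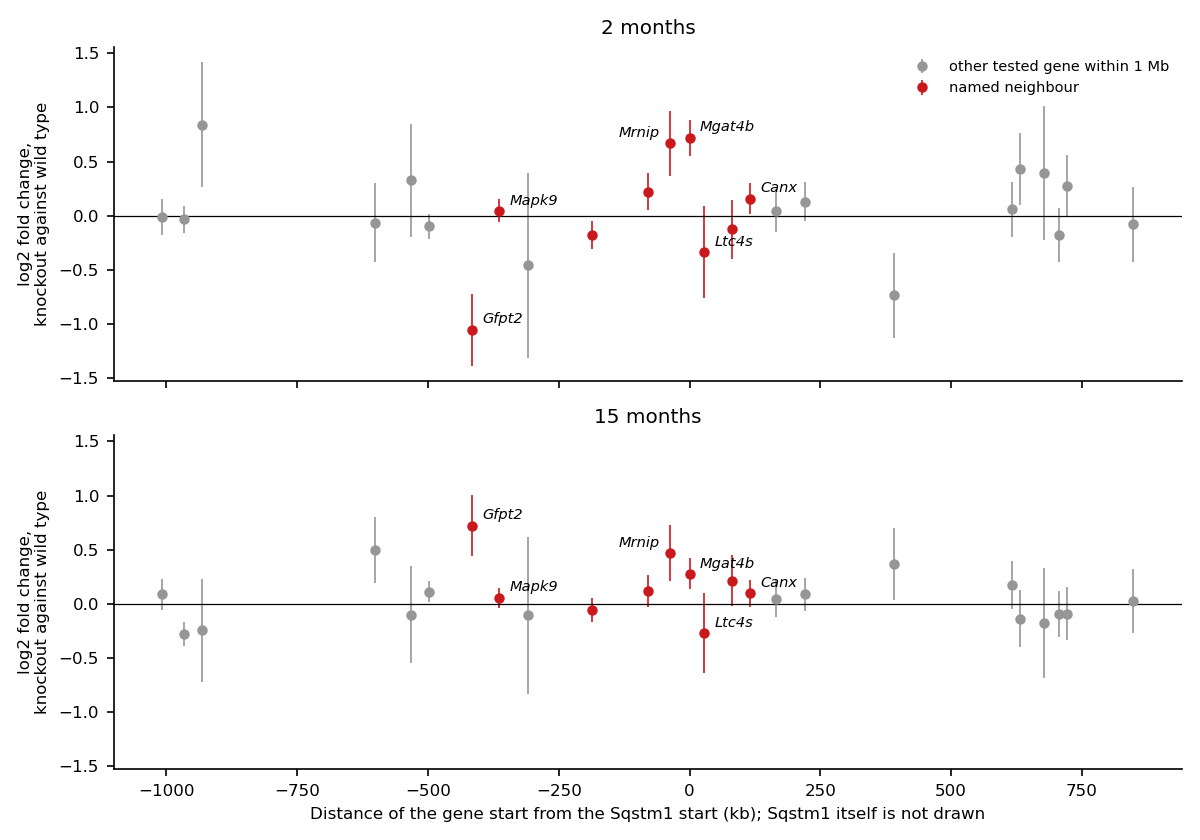
Log2 fold change of knockout against wild type (bars, 1 SE) at 2 months (top) and 15 months (bottom) for each tested gene within 1 Mb of Sqstm1, against the distance of its start from that of Sqstm1 in kb, with the 9 neighbours in red and the other 16 genes in grey. Mgat4b and Mrnip lie at 0.72 and 0.67 at 2 months and at 0.28 and 0.47 at 15 months, and Sqstm1 itself is not drawn.

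The pathways in which the 10 genes act were read in 10 lists with 135 tested genes in all. Between genotypes 0 of the 135 were called at either age or over both ages by edgeR or DESeq2, with 2, 2 and 1 at an unadjusted p under 0.05 (1.48%, 1.48% and 0.741%, each below the share of all genes). Of 20 p62 partners and selective autophagy genes, 16 lay above 0 at 2 months (median log2 fold change 0.10) and 9 at 15 months (median −0.03). Over both ages the smallest p-values of that list were those of the autophagosome protein Gabarapl1 (−0.23) and of Nfe2l2, which encodes Nrf2 (0.31). Among 12 N-glycan branching genes, the company of Mgat4b, 4 lay above 0 at 2 months and 8 at 15 months, and those of smallest p were Mgat1 (−0.16) and Mgat3 (−0.18). Of 14 genes that fold glycoproteins with Canx in the endoplasmic reticulum, 9 and 12 lay above 0 (medians 0.12 and 0.10), with the smallest p over both ages at the calreticulin gene Calr (0.21) and the chaperone gene Hsp90b1 (0.23). Of 13 MRN and break-repair genes, the company of Mrnip, 13 and 7 lay above 0 (medians 0.07 at both ages), with the smallest p over both ages at Mdc1 (0.21) and Prkdc (0.14). Of 11 hexosamine genes other than Gfpt2, 4 and 7 lay above 0, with the smallest p over both ages at Pgm3 (0.23) and Renbp (0.50). Over all genes tested, 7717 and 8021 of 15528 lay above 0.

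The other 5 lists had no gene called between genotypes either. In 15 genes of the JNK pathway the medians were 0.0064 and 0.04, with Map2k4 (0.15) and Mapk8ip3 (0.17) of smallest p over both ages. In 19 Notch genes 6 lay above 0 at 2 months (median −0.08) and 13 at 15 months (median 0.21, and 0.02 without knockout replicate 3), with the endothelial receptor Notch4 (0.38) and the coactivator Maml3 (−0.15). In 15 genes for TBC and Rab proteins they were 0.0036 and 0.13, with Tbc1d2 (0.49) and Rab7 (0.16). In 8 transmembrane RING ligases they were 0.08 and −0.05, with Rnf150 (0.09) and Znrf1 (−0.15). Of 8 leukotriene genes 2 lay above 0 at 2 months (median −0.14) and 7 at 15 months (median 0.20), with the 5-lipoxygenase Alox5 (0.26) and the phospholipase Pla2g4a (−0.49). Endothelial markers lay above 0 in 4 of 8 at 2 months (median 0.06) and 7 of 8 at 15 months (median 0.53, and 0.22 without knockout replicate 3), and their part in the Notch values was not tested.

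With age 3 of the 135 list genes (2.22%) passed edgeR's quasi-likelihood test with Benjamini-Hochberg adjustment in each genotype, where 1.04% of all genes passed in wild type and 2.25% in knockout. The share in knockout is that of the background. Mgat3, which adds the bisecting N-acetylglucosamine to the same sugar chains that Mgat4b branches, rose in both genotypes. Its log2 change was 0.89 (adjusted p = 0.0393) in wild type, from 3.36 ± 0.66 CPM (SD, n = 3) to 6.24 ± 0.20 CPM (SD, n = 4), and 1.24 (adjusted p = 0.0061) in knockout. The autophagy receptor Optn (0.71, adjusted p = 0.0301) and the p62-binding kinase Prkcz (1.61, adjusted p = 0.0375) rose in wild type and gave 0.49 and 1.20 in knockout, where they did not pass. Ggt5, which cleaves the leukotriene that Ltc4s makes (1.01, adjusted p = 0.0481), and the break-repair gene Trp53bp1 (0.87, adjusted p = 0.0274) rose in knockout and gave 0.41 and 0.72 in wild type. The differences between genotypes in these age effects did not pass (adjusted p = 0.9998 for each in the edgeR test). The call of Ggt5 depended on the libraries kept. With each library left out in turn, most fits called no leukotriene gene with age in knockout. The exceptions were the fits without wild-type replicate 1 at 2 months or, at 15 months, wild-type replicate 2 or knockout replicate 1.

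The genes whose levels ran most like Sqstm1 over the 14 hearts were Srxn1, which repairs oxidised peroxiredoxins, Foxo6, Mecr, Epdr1 and Nle1, with Pearson r of log2 CPM between 0.749 and 0.831 among 11592 protein-coding genes compared. All 14 points include the genotype difference in Sqstm1 itself. Genes picked for a high r with Sqstm1 or Mgat4b share that gene's group pattern by the choice, so their splits are no separate support. Over both ages 0.0193% of all genes tested did not overlap between genotypes. How high an r arises by chance among so many genes was not tested. Srxn1 was at 13.3 to 19.4 CPM in wild-type hearts and 9.49 to 12.3 CPM in knockout hearts, without overlap, and gave −0.50 (SE 0.11) over both ages, which did not pass (adjusted p = 0.9995, Benjamini-Hochberg adjustment in edgeR's quasi-likelihood test). The genes most like Mgat4b were Ptprn, Emp2, Rbms2, Tulp4 and Atg101, with r between 0.806 and 0.829. Ptprn was at 6.31, 6.56 and 6.67 CPM in the 3 young knockout hearts and at 3.04 to 5.94 CPM in the wild-type hearts, the same order of groups as Mgat4b at 2 months. None of these 10 genes lies within 1 Mb of Sqstm1, and Nle1 is the 1 among them on chromosome 11.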

How the data were processed

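RNA of 14 whole hearts in 4 groups was analysed. The authors deposited raw counts per Ensembl gene, made with cutadapt 1.16, STAR 2.7.3a and featureCounts 1.6.3 on GRCm38, with DESeq2 1.26.0 also named, per the submitters' processing notes. Neither strand setting nor multi-mapping rule is given in the sources used here. Symbols and positions came from GENCODE M21 (55227 of 55487 identifiers matched). Genes were kept by filterByExpr (minimum count 10, total 15), scaled by TMM and fitted over all libraries with edgeR 4.0.16 in R 4.3.3. The quasi-likelihood F-test was run with Benjamini-Hochberg adjustment over 15528 genes at a threshold of 0.05. The procedure had first been tried on simulated data with the same spread for all genes and changes only in genes with higher counts. That trial does not bear on genes of few counts such as Mrnip and Ltc4s. The SE is the size of the log2 fold change divided by the square root of F. Alternatives were RLE scaling, no filter, no mitochondrial genes, a replicate block, only the groups compared, DESeq2 1.42.0, and each library left out. No 2 libraries were repeats (chi-square over degrees of freedom at least 29.1 in any group and 18.8 in any pair). Mrnip and Ltc4s had under 100 counts in every library, and Gfpt2 as few as 89. Members and lists were chosen with earlier results of these data known. The text names the 10 genes, the window and list genes with the smallest p over both ages (1 pair each), list genes that passed, and the 5 protein-coding genes of highest r at a mean CPM of at least 1.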

Additional observations from a re-analysis of the deposited data

Results flagged for a closer look

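Sqstm1 in knockout replicate 2 at 15 months, at 37.0 CPM, lay far from the other 3 hearts of its group, with a gap that was 0.867 of the group's range against a critical value of 0.829 for 4 samples. Over the 20 groups of 4 hearts tested (10 genes, both aged genotypes) this was the 1 such value, and chance alone gives about 1 in 20.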

How the results depend on the processing

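Sqstm1 was called at both ages under every alternative run, with log2 fold changes from −3.43 to −3.23 at 2 months and −3.64 to −3.09 at 15 months. The number of genes called between genotypes, 1 in each comparison, was 3 without a filter and 7 by DESeq2 at 2 months. At 15 months it was 2 in the fit of only the groups compared, 7 by DESeq2, and 1 to 3 with each library left out. Over both ages it was 5 by DESeq2, and for the difference between ages 0 became 1 by DESeq2 and 0 to 1 with each library left out. With age, 161 genes in wild type became 86 in the fit of only the groups compared, 1100 by DESeq2 and 38 to 796 with each library left out. The 349 in knockout became 134, 1622 and 49 (without knockout replicate 1 at 2 months) to 3523 (without knockout replicate 1 at 15 months). The cause was not tested.

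No consistent pairing of hearts by equal replicate number was seen (correlations of deviations from −0.493 to 0.376), and pairing was not tested further. With the number as a replicate block, 55 genes were called with age in wild type and 70 in knockout, and the age changes in wild type turned to 0.050 for Mgat4b and 0.064 for Maml1. Mgat4b also turned in wild type with age without a filter (0.0022).

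Leaving out each library in turn turned the direction of uncalled small values, here with their lowest and highest. For knockout against wild type at 2 months these were Ltc4s (−0.49 to 0.021) and Maml1 (−0.30 to 0.067). At 15 months they were Ltc4s (−0.51 to 0.032), Maml1 (−0.085 to 0.36), Tbc1d9b (−0.0041 to 0.25) and Rnf130 (−0.11 to 0.00074), and over both ages Maml1 (−0.10 to 0.14). With age in wild type they were Ltc4s (−0.62 to 0.032), Maml1 (−0.24 to 0.13), Mrnip (−0.019 to 0.24) and Mgat4b (−0.14 to 0.17). With age in knockout they were Maml1 (−0.022 to 0.42), Mrnip (−0.25 to 0.057) and Sqstm1 (−0.023 to 0.52). For the difference between ages they were Ltc4s (−0.28 to 0.36), Sqstm1 (−0.34 to 0.21), Mapk9 (−0.028 to 0.054) and Tbc1d9b (−0.23 to 0.028). Ltc4s and Mrnip rest on 13 to 60 counts per library.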
